A study of Mus musculus with 48 samples.

Results

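The genes described here are 8 genes close to the targeted Tia1 locus of mouse chromosome 6: Wdr54, Dguok, Exoc6b, Nat8f5, Tprkb, Pcyox1, Nfu1 and Gkn3. They lie within 50 array genes of Tia1 on chromosome 6, where an array gene is a gene with at least 1 probe set, and they were chosen because KO and WT mice differed in their level in most tissues. All 15 probe sets with a member's symbol were taken, of 45037 probe sets without controls, and each probe set, a set of short oligonucleotides that reads 1 transcript or group of transcripts, was kept on its own. The KO minus WT differences below, and whether KO and WT mice overlapped, are therefore a description and carry no test. How often the genotypes did not overlap over all probe sets was not counted, so nothing is read from such counts below.

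Liver, midbrain, cerebellum and spinal cord were measured in 3 mice per genotype at 3 and at 6 months of age, which gave 48 arrays in 16 groups. The labels give the background of all mice as C57Bl/6, and the methods as C57BL6/J. Tia1 KO mice carried a targeted Tia1 allele without exon 4 sequence, after many generations of breeding into that strain, and each age had its own group of WT mice without the allele. The methods give the WT mice as bought from The Jackson Laboratory, whereas the series description calls them littermates. The KO mice differ from the WT mice in the allele, in the stretch of chromosome 6 inherited with it and, by the methods, in their colony, and these cannot be told apart. In bulk tissue, fewer cells that express a gene and less RNA per cell cannot be told apart either.

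The 8 genes share a neighbourhood and not a pathway. Dguok phosphorylates purine deoxynucleosides for mitochondrial DNA synthesis, and Nfu1 passes iron-sulfur clusters to mitochondrial enzymes. Tprkb is a subunit of the KEOPS complex, which modifies transfer RNA, and Exoc6b belongs to the exocyst, which tethers vesicles to the plasma membrane. Pcyox1 oxidises the prenylcysteine left when prenylated proteins are degraded, and Nat8f5 belongs to the camello group of N-acetyltransferase relatives, which lie in a cluster on this chromosome. Gkn3 is a gastrokine, a family known from stomach mucus, and is used as a marker of arterial endothelium in mouse brain, while Wdr54 is a WD repeat protein of which little is known.

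Promoters are shown for Nat8f5 and Gkn3, which gave the largest KO minus WT differences of the 8 genes, and for Nfu1 and Dguok, whose WT group means differed by less than 1 (log2) between the tissues. The 150 bases before the RefSeq transcript start are printed 5′ to 3′ from the RefSeq promoter table (GRCm38.p6), with each CG pair in capitals.
Nat8f5 (chr6:85820973-85821122, minus strand): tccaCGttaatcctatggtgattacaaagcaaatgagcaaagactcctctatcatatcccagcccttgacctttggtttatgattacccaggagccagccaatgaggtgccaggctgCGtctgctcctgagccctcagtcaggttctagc
Gkn3 (chr6:87388936-87389085, minus strand): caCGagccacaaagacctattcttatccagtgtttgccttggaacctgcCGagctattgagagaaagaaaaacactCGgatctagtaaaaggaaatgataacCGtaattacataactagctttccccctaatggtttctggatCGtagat
Nfu1 (chr6:87009686-87009835, plus strand): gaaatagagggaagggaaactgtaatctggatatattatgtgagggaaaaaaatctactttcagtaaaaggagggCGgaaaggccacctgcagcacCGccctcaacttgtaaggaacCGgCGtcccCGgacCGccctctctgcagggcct
Dguok (chr6:83506970-83507119, minus strand): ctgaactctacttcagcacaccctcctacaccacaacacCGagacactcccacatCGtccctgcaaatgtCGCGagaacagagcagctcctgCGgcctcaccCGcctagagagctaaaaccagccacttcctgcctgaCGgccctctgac
All 8 genes had an entry in that table, with 10 promoters in all. Over the 250 bases before the start, the ratio of observed to expected CG pairs was 0.18 for Nat8f5, 0.48 for Gkn3, 0.59 for Nfu1 and 0.72 for Dguok, beside a median of 0.37 over 32851 promoters of the same length. Wdr54 and Exoc6b had ratios of 0.80 and 0.88, Pcyox1 had 0.66, and the 3 Tprkb promoters had 0.14, 0.66 and 1.07. The letters TATAAA, searched on both strands, were in none of the 10 promoters and in 12.4% of all promoters. GGGCGG was in the promoters of Tprkb, Pcyox1 and Nfu1 and in 32.7% of all, and CCAAT was in those of Nat8f5, Nfu1 and the first of Tprkb and in 33.8% of all. The CCAAT letters of Nat8f5 stand within the stretch printed above. These matches describe the letters only.

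Arrays of a group correlated at 0.985 or more, and the median of an array lay between 3.95 and 4.32 (log2). The Tia1 probe set 1431708_PM_a_at was lower in KO than in WT mice without overlap in all 8 comparisons, for example 5.35 ± 0.19 against 7.61 ± 0.10 (log2, SD, n = 3) in spinal cord at 3 months. Of the other 5 Tia1 probe sets, 3 were higher in KO mice without overlap in all 8 comparisons, 1 in 7 and 1 overlapped throughout. Each tissue carried its own marker list. Markers of other tissues varied between mice of a group: skeletal muscle genes averaged 8.52 in the spinal cord of WT mouse 3 and 2.73 in that of WT mouse 2 at 3 months, and they averaged 6.49 in the liver of KO mouse 122972 at 3 months. Liver markers averaged 4.09, 3.98 and 2.99 in KO spinal cord at 6 months, where the WT mice had at most 2.89, and cerebellar markers averaged 4.51 in the midbrain of KO mouse 122970 at 6 months, where the WT mice had at most 3.30. Choroid plexus markers averaged 7.65 in the midbrain of KO mouse 122973 at 3 months and at most 4.83 in the other mice of that age, and they ran from 4.86 to 8.19 within WT cerebellum at 3 months. Adipocyte markers averaged 6.31 in the spinal cord of KO mouse 122973 at 3 months and 5.42 in that of WT mouse 3. Of these only Adipoq and Car3 were measured, with 5 probe sets that are mostly of Car3. Each mouse was therefore left out in turn, which moved the 120 KO minus WT differences of the members by -0.34 to 0.32. The sign changed in 12 of 720 recomputed differences, all of at most 0.11 in size and none with a decision, and 7 with a decision moved by over 1.5 times (Wdr54, Tprkb, Nfu1 and the dim Pcyox1 probe set, all in liver). The part of these other tissues in the members' differences was not tested.

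**Figure D1:**
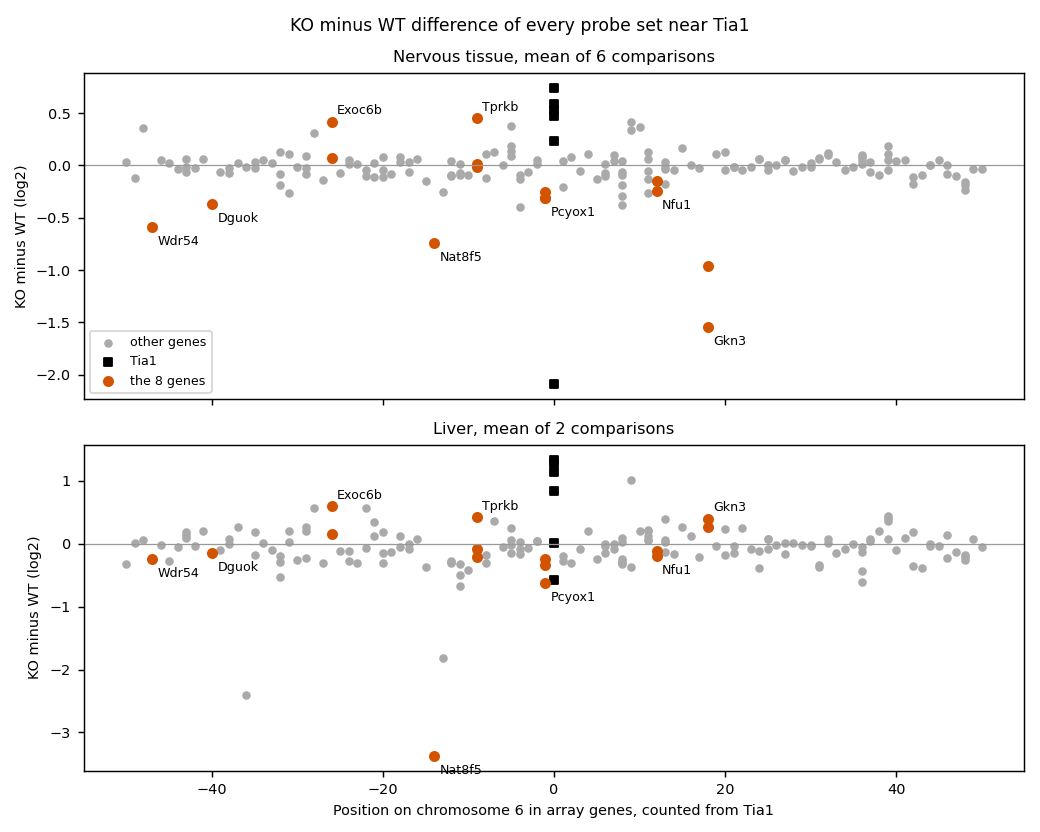
KO minus WT difference (log2) of each probe set of array genes up to 50 positions from Tia1, as the mean of the 6 comparisons in nervous tissue (top) and of the 2 in liver (bottom), against the position of the gene in array genes (Tia1 at 0). Members are orange, Tia1 probe sets black squares and other genes grey; in liver Nat8f5 reaches a mean below -3, and in nervous tissue Gkn3 has the lowest value of the members.

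By the nested F decisions of limma, which treat the 8 comparisons of a probe set together, 9 of the 15 member probe sets differed in at least 6 comparisons with no opposite decision: 2 were higher and 7 lower in KO mice. Over all probe sets this held for 0.122% in the higher and 0.0888% in the lower direction. Since the members were chosen on these contrasts, nothing is read from their count. The 9 probe sets cover all 8 genes. Wdr54, Dguok, Nat8f5, Pcyox1, Nfu1 and Gkn3 were the lower ones, and Exoc6b and Tprkb the higher ones. By the adjusted p of single comparisons, 31 of 120 member differences passed 0.05, and no member probe set passed in 6 comparisons. Over all probe sets, single nervous comparisons were called for 0.142% to 0.548% and those in liver for 9.44% and 11.5%.

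**Figure D2:**
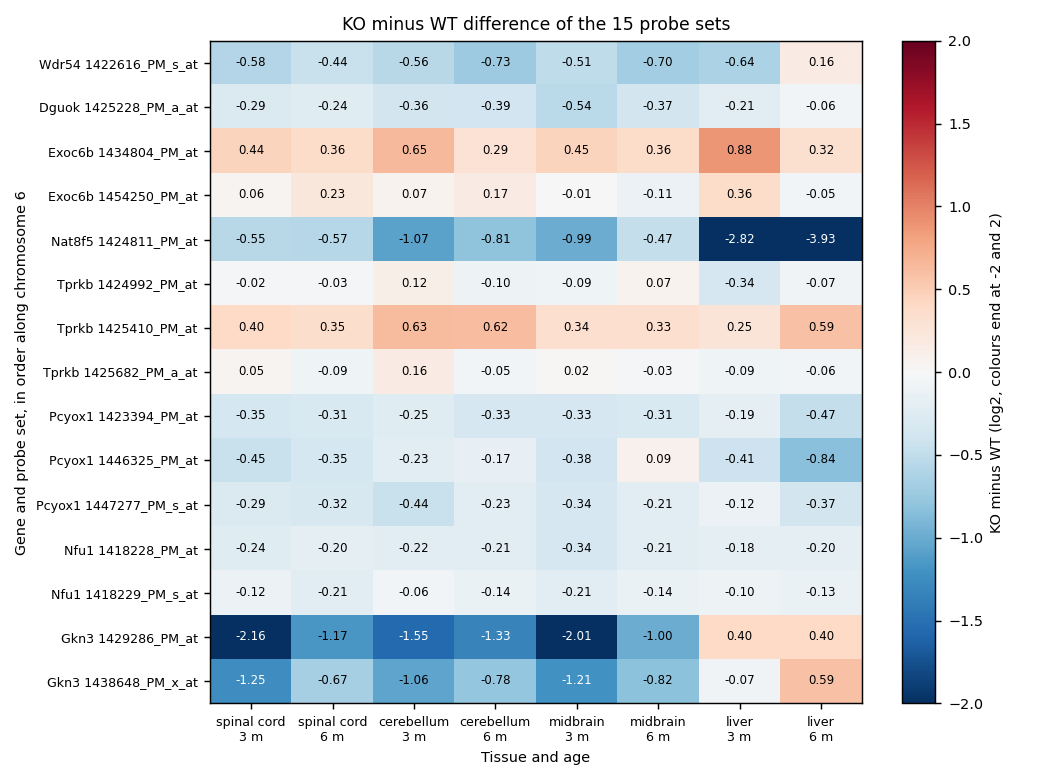
KO minus WT difference (log2) of each of the 15 member probe sets (rows, in order along chromosome 6) in the 8 comparisons of tissue and age (columns; m, months). Blue is lower and red higher in KO mice, with colours ending at -2 and 2; Nat8f5 has its lowest values in liver (-2.82 and -3.93), and Gkn3 1429286_PM_at is negative in nervous tissue only.

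Nat8f5, at position -14 from Tia1, gave the largest difference of the members. In WT liver the 3 mice had 7.0, 7.39 and 7.64 at 3 months and 7.96, 7.96 and 7.66 at 6 months (log2). In KO liver they had 4.49, 4.50 and 4.57 at 3 months and 3.63, 4.62 and 3.55 at 6 months. Every KO liver lay below every WT liver, by fold changes of -7.07 (log2 difference -2.82 ± 0.18, SE) and -15.21 (-3.93 ± 0.18). In nervous tissue the Nat8f5 level was low in all mice. WT group means there ran from 3.26 to 3.93 and KO group means from 2.70 to 3.20, all below the lowest array median. The differences there ran from -0.47 to -1.07, and the KO and WT mice did not overlap in the 6 comparisons.

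Averaged over both ages, the KO effect on Nat8f5 in spinal cord, cerebellum and midbrain lay 2.81, 2.44 and 2.65 above that in liver (SE 0.18). These values build on the KO minus WT differences by which the gene was chosen and carry no test. The nervous levels lay below the array medians, where a log2 difference can be compressed. Such tissue contrasts were called for 4.45%, 4.66% and 5.42% of all probe sets. In liver, the KO effect on Nat8f5 was also more negative at 6 than at 3 months, by -1.10 ± 0.26. This value too builds on the differences by which Nat8f5 was chosen and is a description only. It ran from -1.45 to -0.91 when any of the 12 mice was left out, and limma did not call it with the liver arrays fitted alone. The contrast was called for 7.14% of all probe sets.

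The other camello genes lie beside Nat8f5, and 4 of them, Nat8, Nat8f1, Nat8f2 and Nat8f4, were measured with 8 probe sets. In liver 6 of these probe sets were lower in KO than in WT mice at each age and none was higher, with medians of -0.36 at 3 and -0.53 at 6 months beside 0.00 over all probe sets. The share called in either direction among all probe sets was 9.44% at 3 and 11.5% at 6 months. Nat8, an N-acetyltransferase of liver and kidney, had 8.50, 8.91 and 9.26 in WT and 7.32, 6.94 and 7.12 in KO liver at 3 months. The KO minus WT difference of Nat8 was -1.76 ± 0.16 at 3 months (limma adjusted p = 3.52e-10) and -1.86 ± 0.16 at 6 months (8.63e-11). Nat8f1 differed by -0.29 ± 0.09 at 3 months (adjusted p = 0.0476) and by -0.54 ± 0.09 at 6 months (0.000128). Nat8f2 1421108_PM_at differed by -0.30 at 3 months (0.025) and by -0.29 at 6 months (0.0281). Nat8f4 1420767_PM_at differed by -0.75 (0.000666) and -0.60 (0.00539), at levels below the array median. In nervous tissue no probe set of these relatives was called in the 6 comparisons by limma, and 11 of 48 tests had an unadjusted p under 0.05. By the nested F decisions used for the members, Nat8f1 had 3 decisions in nervous tissue and Nat8 and Nat8f2 1421108_PM_at 1 each. Over all 8 comparisons Nat8f1 had 4 for lower and 1 for higher values. Nat8f5 thus differed by more than its measured relatives, and the difference between them was not tested.

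**Figure D3:**
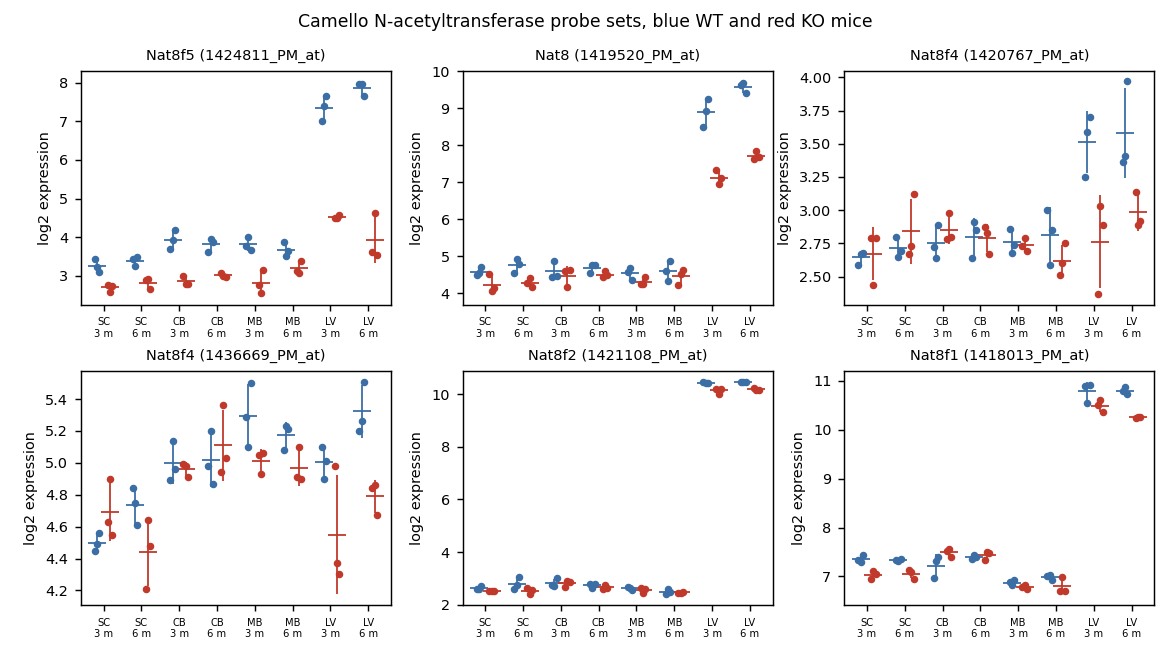
Log2 expression of Nat8f5 and of 5 probe sets of its camello relatives by tissue and age (SC, spinal cord; CB, cerebellum; MB, midbrain; LV, liver; m, months), in WT (blue) and KO (red) mice; points are mice, bars mean and SD (n = 3), and each panel has its own vertical range. In liver the KO mice lie below the WT mice for Nat8f5 and for Nat8 at both ages.

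Gkn3, at position 18, showed the opposite distribution. By probe set 1429286_PM_at, WT midbrain had 5.54, 5.61 and 6.29 at 3 months and KO midbrain 4.24, 3.75 and 3.43. WT spinal cord had 5.37, 5.44 and 5.81 and KO spinal cord 3.53, 3.07 and 3.54 at that age. WT cerebellum had 4.78, 5.30 and 5.49 and KO cerebellum 3.47, 3.71 and 3.74. No KO mouse reached a WT mouse in any of the 6 nervous comparisons, and the differences for Gkn3 ran from -1.0 in midbrain at 6 months to -2.16 ± 0.25 in spinal cord at 3 months, a fold change of -4.48. In WT liver Gkn3 had only 2.94 ± 0.07 at 3 and 2.88 ± 0.22 at 6 months (SD, n = 3), and the KO livers overlapped them with differences of 0.40 ± 0.25 at both ages. The second Gkn3 probe set, 1438648_PM_x_at, gave smaller differences in nervous tissue, from -0.67 to -1.25. In liver at 6 months it was higher in KO mice, with 3.01, 3.47 and 3.45 against 2.75, 2.89 and 2.54, and this opposite decision kept it out of the 9.

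Averaged over both ages, the KO effect on Gkn3 lay below that in liver by 1429286_PM_at, with values of -2.07, -1.84 and -1.90 (SE 0.25) for spinal cord, cerebellum and midbrain, and by 1438648_PM_x_at, with -1.22, -1.18 and -1.27 (SE 0.20). These values are a description only. Gkn3 was chosen through its 6 nervous decisions, and its WT level in liver was close to the mean levels of Gkn1 and Gkn2 (2.96 and 2.68), where a lower KO level might not be measurable. Between pairs of nervous tissues no member was called by limma, and 2 of 45 tests had an unadjusted p under 0.05, beside 0.0311% of all tests called in these 3 contrasts.

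Gkn3 marks arteries, and the 8 arterial endothelial genes fixed as markers (Bmx, Sema3g, Efnb2, Gja4, Gja5, Hey1, Vegfc and Fbln5) were read by 12 probe sets. None of the 12 was called by limma in any of the 8 comparisons, while 7 of the 96 tests had an unadjusted p under 0.05. Their mean level per mouse, pooled over the nervous tissues, lay between 4.57 and 4.81 in WT and between 4.59 and 4.81 in KO mice. Single probe sets of the list differed by -0.36 to 0.37 there, which such a mean can hide. Whether the amount of arterial cells differed was not tested. Of the wider endothelial list, Cldn5 of the tight junctions was 0.61 ± 0.13 higher in KO midbrain at 6 months (limma adjusted p = 0.0209) and no other of its 9 probe sets was called in nervous tissue. The gastrokines Gkn1 and Gkn2, which lie next to Gkn3, had mean levels of 2.96 and 2.68 and no call.

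**Figure D4:**
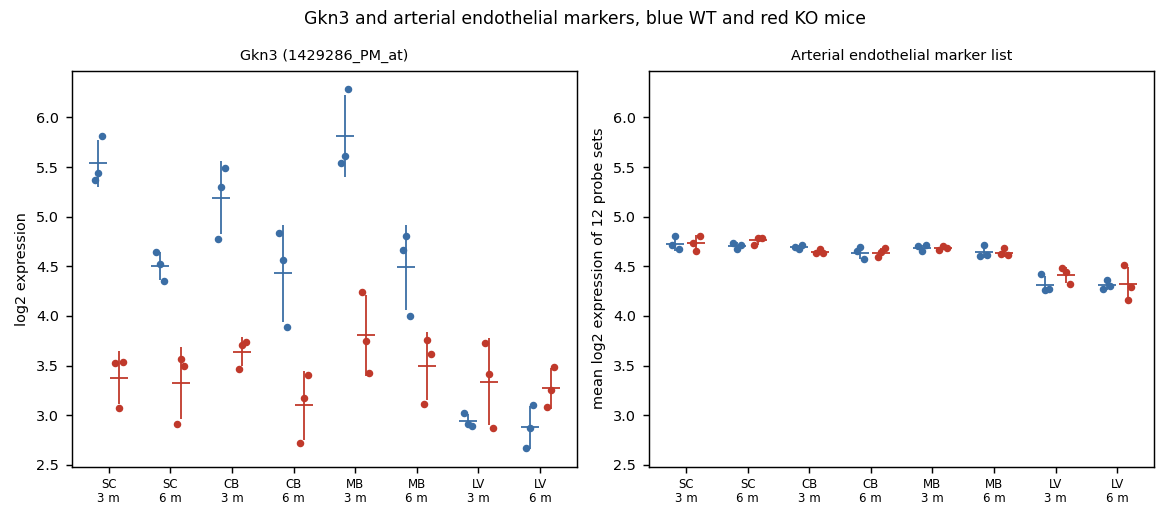
Log2 expression of Gkn3 (left) and mean log2 expression of 12 probe sets of arterial endothelial markers (right) by tissue and age, in WT (blue) and KO (red) mice; points are mice, bars mean and SD (n = 3), abbreviations as in the plot of the camello genes. In nervous tissue the Gkn3 points of the genotypes separate, while the marker means lie between 4.57 and 4.81 in both.

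Wdr54, at position -47 and the outermost member on its side, was lower in KO nervous tissue throughout. WT midbrain had 6.74, 6.66 and 6.75 and KO midbrain 6.08, 6.03 and 5.96 at 6 months. WT spinal cord had 6.42, 6.49 and 6.29 and KO spinal cord 5.82, 5.95 and 5.68 at 3 months. In nervous tissue the genotypes never overlapped for Wdr54, with differences from -0.44 ± 0.16 to -0.73 ± 0.16. In liver, where its level was low, WT mice had 3.90, 4.46 and 4.67 and KO mice 3.71, 3.25 and 4.14 at 3 months, and the groups overlapped at both ages. The Wdr54 difference in liver at 3 months was -0.64, and -0.42 without KO mouse 122972, whose liver carried muscle markers. The KO effect on Wdr54 in liver differed between the ages by 0.80 ± 0.23. This value builds on the KO minus WT values by which Wdr54 was chosen and is a description only. The contrast was called for 7.14% of all probe sets. When each mouse was left out in turn, the value for Wdr54 ran from 0.57 to 1.02. By limma it was not called without any of 6 of the 12 mice, nor with liver fitted alone.

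Dguok, at position -40, had 7.07, 7.18 and 6.99 in WT and 6.45, 6.63 and 6.52 in KO midbrain at 3 months. The difference of -0.54 ± 0.10 there was its largest. The genotypes did not overlap in the 6 nervous comparisons or in liver at 3 months, with Dguok differences from -0.21 to -0.54. In liver at 6 months they overlapped, with 7.64, 7.26 and 7.65 in WT and 7.29, 7.56 and 7.51 in KO mice. The KO effect on Dguok, averaged over both ages, was -0.32 ± 0.10 in midbrain relative to liver, given without a test for the same reason as for Gkn3.

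Pcyox1, next to Tia1 at position -1, was lower in KO mice by its 2 brighter probe sets. By 1423394_PM_at, WT spinal cord had 8.70, 8.84 and 8.60 and KO spinal cord 8.37, 8.41 and 8.32 at 3 months. WT liver had 10.01, 10.05 and 10.00 and KO liver 9.45, 9.61 and 9.59 at 6 months. The Pcyox1 differences by this probe set ran from -0.19 ± 0.08 to -0.47 ± 0.08, and only cerebellum at 3 months showed an overlap. By 1447277_PM_s_at, the brighter one, the genotypes overlapped nowhere and the differences were -0.12 to -0.44. The dim Pcyox1 probe set 1446325_PM_at ranged from 0.09 to -0.84, where KO liver at 6 months had 3.93, 5.19 and 4.62 against 5.42, 5.53 and 5.29 in WT. Without KO mouse 122970 that last difference was -0.51.

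Nfu1, at position 12, gave the smallest differences with a decision in every comparison. By 1418228_PM_at, WT midbrain had 8.81, 8.83 and 8.77 and KO midbrain 8.49, 8.44 and 8.45 at 3 months. WT cerebellum had 8.31, 8.29 and 8.28 and KO cerebellum 8.09, 8.06 and 8.11 at 6 months. The Nfu1 mice of a group lay close together, and differences of -0.18 to -0.34 ± 0.07 left the genotypes apart in 7 comparisons. Liver at 6 months was the exception, where KO mice had 8.39, 8.73 and 8.35 and WT mice 8.82, 8.58 and 8.66. The Nfu1 difference there was -0.20, and -0.13 without WT mouse 1 or KO mouse 122973 and -0.32 without KO mouse 122972. The second Nfu1 probe set, 1418229_PM_s_at, was negative in all 8 comparisons too, from -0.06 to -0.21, with a decision in 2.

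Exoc6b, at position -26, was higher in KO mice. By 1434804_PM_at, KO spinal cord had 6.56, 6.47 and 6.45 and WT spinal cord 6.01, 6.04 and 6.12 at 3 months. KO liver had 4.17, 4.01 and 4.48 and WT liver 3.39, 3.30 and 3.32 at that age. Every KO mouse lay above every WT mouse except in liver at 6 months, with Exoc6b differences from 0.29 ± 0.12 to 0.88 ± 0.12. The KO effect in liver was smaller at 6 than at 3 months, by -0.56 ± 0.17. This value builds on the KO minus WT values by which Exoc6b was chosen and is a description only. The contrast was called for 7.14% of all probe sets. When each mouse was left out in turn, the value for Exoc6b ran from -0.67 to -0.40. By limma it was not called without any of 5 of the 12 mice, nor with liver fitted alone. The other Exoc6b probe set, 1454250_PM_at, had a mean level of 2.97, and it was the single member probe set below 5 in every group mean, with no decision.

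Tprkb, at position -9, was read by 3 probe sets that disagreed. By 1425410_PM_at, KO cerebellum had 5.54, 5.20 and 5.70 and WT cerebellum 4.62, 4.99 and 4.94 at 3 months. KO liver had 6.43, 6.44 and 6.37 and WT liver 5.80, 5.74 and 5.93 at 6 months. KO values of this Tprkb probe set were higher on average in all 8 comparisons, by 0.25 to 0.63 ± 0.13, and overlapped WT values in 3. In liver at 3 months the Tprkb difference of 0.25 became 0.40 without WT mouse 1 and 0.14 without WT mouse 2. The 2 brighter probe sets of Tprkb, 1424992_PM_at and 1425682_PM_a_at, had mean levels of 8.69 and 9.23 and mean differences of -0.06 and -0.01, with no decision. In liver at 3 months, however, Tprkb 1424992_PM_at was -0.34 ± 0.08 in KO relative to WT mice and did not overlap, opposite in sign to 1425410_PM_at. The direction for Tprkb therefore rests on 1 of its 3 probe sets. In the RefSeq table Tprkb overlaps Nat8f1, and Wdr54 overlaps 1700003E16Rik. Probe sets ending in _s_at, _a_at or _x_at can read several transcripts, so that shared signal was not separated.

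**Figure D5:**
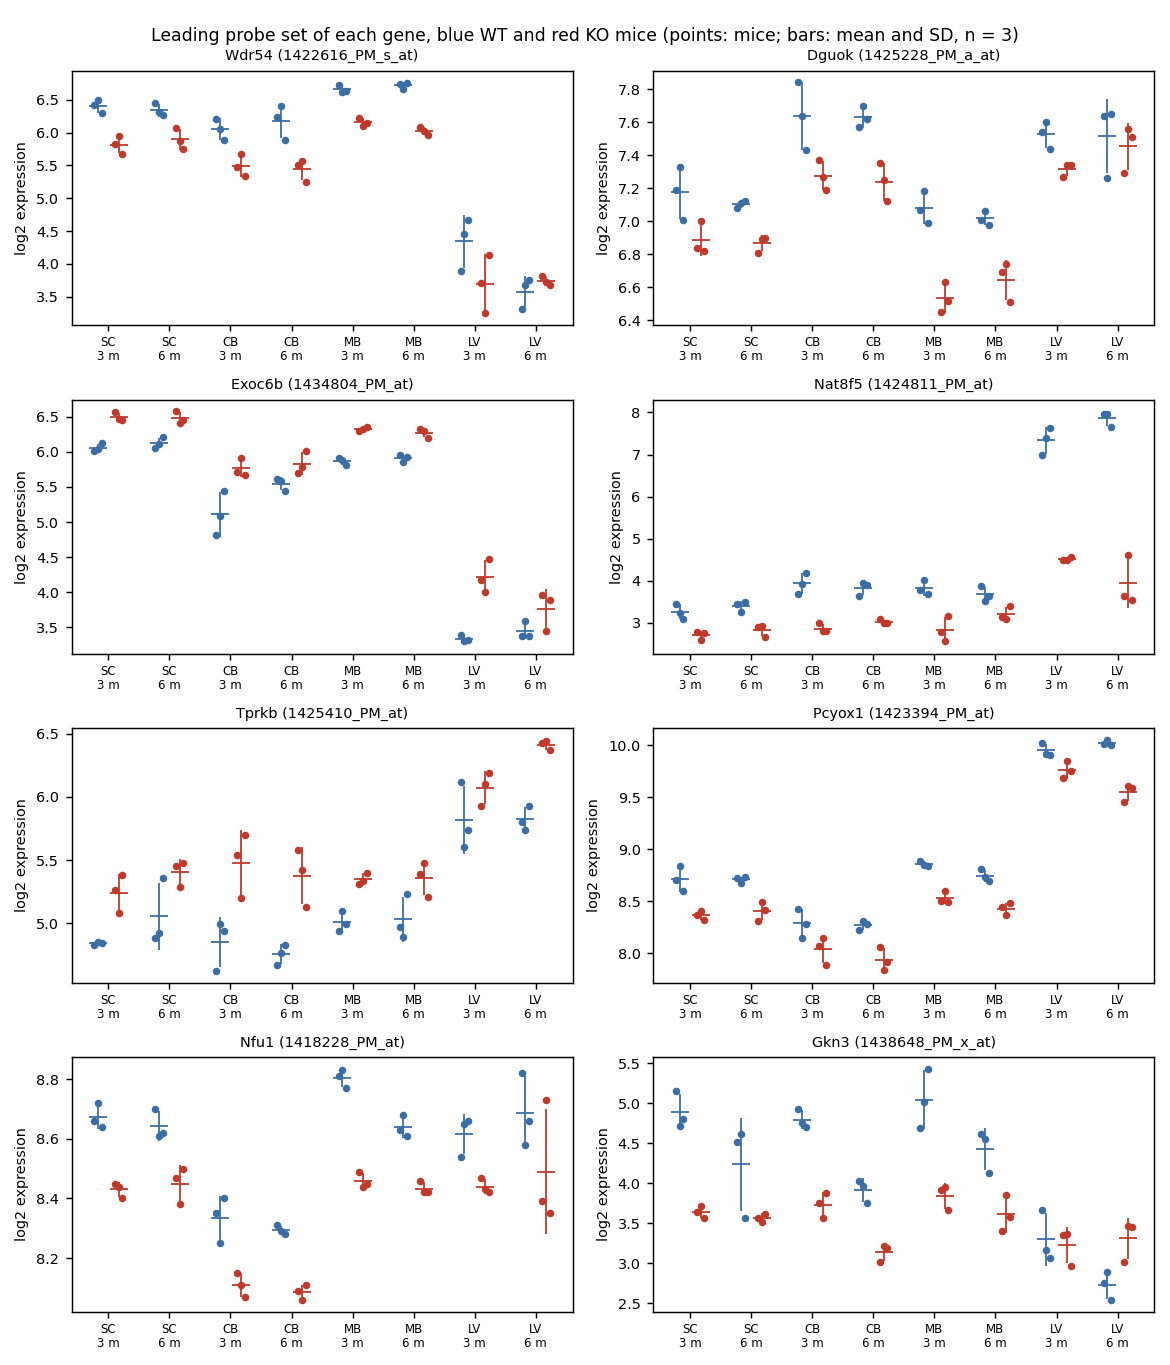
Log2 expression of the leading probe set of each member, the one with the most nested F decisions, by tissue and age (SC, spinal cord; CB, cerebellum; MB, midbrain; LV, liver; m, months) in WT (blue) and KO (red) mice; points are mice, bars mean and SD (n = 3), and each panel has its own vertical range. Nat8f5 has its WT maximum in liver at 7.86, and Wdr54, Exoc6b and Gkn3 have their lowest WT levels there.

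Differences between WT tissues were not a criterion for choosing the members. The same WT arrays did enter every KO minus WT difference behind that choice, and Gkn3 was chosen through its nervous decisions. The tissue results are therefore not independent of the choice. Of 180 member tests between tissues in WT mice, 119 passed (limma, adjusted p under 0.05), beside 51.3% of all such tests. The 119 include the tests of Gkn3 against liver, which are given below as a description. Nat8f5 in liver exceeded the next tissue, cerebellum, by 3.41 ± 0.18 at 3 months (adjusted p = 1.27e-19) and by 4.04 at 6 months (5.46e-22), whereas cerebellum and midbrain did not differ beyond their spread. Pcyox1 1423394_PM_at was also highest in liver, 1.09 ± 0.08 above midbrain at 3 months (7.59e-16), and lowest in cerebellum. The 3 Tprkb probe sets were highest in liver, by 0.77 to 1.24 over the next tissue. Gkn3 was lowest in liver, where cerebellum exceeded it by 2.25 ± 0.25 at 3 months by 1429286_PM_at. This is given without a test, since a choice through nervous decisions favours a gene measurable in those tissues. The order of Gkn3 among the nervous tissues was not resolved by neighbouring tests. Wdr54 stood lowest in liver too, 1.71 ± 0.16 below cerebellum at 3 months (2.88e-12), with midbrain, spinal cord and cerebellum not resolved from their neighbours. Exoc6b 1434804_PM_at ran from spinal cord and midbrain, which did not differ beyond their spread, through cerebellum, 0.76 ± 0.12 lower at 3 months (1.27e-06), to liver, lower by a further 1.77 (1.57e-16). Nfu1 1418228_PM_at differed little, with cerebellum the lowest, 0.29 ± 0.07 below liver at 3 months (0.000451). Dguok was highest in cerebellum and liver, and liver exceeded spinal cord by 0.35 ± 0.10 at 3 months (0.0022).

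Between the WT groups of 3 and 6 months few members differed. The ages were taken as separate mice, so that age and the group of mice cannot be told apart. Below, fell means a lower level in the group of 6 months. Gkn3 fell: 1429286_PM_at fell by 1.32 ± 0.25 in midbrain (limma adjusted p = 0.00788), from 5.54, 5.61 and 6.29 to 4.66, 4.81 and 4.0, and 1438648_PM_x_at fell by 0.88 ± 0.20 in cerebellum (0.0138). In the other nervous tissues Gkn3 1429286_PM_at differed by -1.04 in spinal cord (0.0758) and -0.76 in cerebellum (0.159). The midbrain call was lost without WT mouse 3 of either age (adjusted p 0.133 and 0.175), and the cerebellar call without WT mouse 1 at 3 months (0.0526). Wdr54 fell by 0.76 ± 0.16 in WT liver (0.00134), a call lost with liver fitted alone (0.24) and with the mouse number as a block (0.258). Tprkb 1424992_PM_at fell by 0.28 ± 0.08 there (0.0189), lost without WT mouse 3 of either age (0.061 and 0.15) and with liver fitted alone (0.333). Pcyox1 1447277_PM_s_at fell by 0.29 ± 0.08 in cerebellum (0.0422), a call lost without any of 8 of the 12 mice (0.0614 to 0.311) and with cerebellum fitted alone (0.152). The share of all probe sets called for age in WT mice was 0.242% (spinal cord), 1.13% (cerebellum), 0.258% (midbrain) and 10.7% (liver).

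In KO mice the age contrast was called for 2 members, both in liver, where it was called for 10.9% of all probe sets. Nat8f5 fell by 0.59 ± 0.18 (limma adjusted p = 0.0307), a call lost without any of 5 mice, KO mouse 122970, 122972 or 122973 at 3 months and KO mouse 122970 or 122973 at 6 months (0.0636 to 0.223), and with liver fitted alone (0.414). Exoc6b 1434804_PM_at fell by 0.45 ± 0.12 (0.0109), lost without KO mouse 122973 at 3 months or 122972 at 6 months (0.118 and 0.149) and with liver fitted alone (0.314). In KO nervous tissue limma called no member, with 4 of 45 at an unadjusted p under 0.05, beside 0.06% of all tests called. No change of the KO effect with age was called by limma for a member in nervous tissue, with 5 of 45 at an unadjusted p under 0.05, beside 0.0518% of all tests called. For Gkn3 1429286_PM_at this difference was 0.99 ± 0.36 in spinal cord and 1.01 ± 0.36 in midbrain (adjusted p = 1 and 0.85).

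The other array genes at most 50 positions from Tia1 numbered 92, with 157 probe sets. In nervous tissue 5 calls were made among them over 6 comparisons: 0 of 157 in spinal cord at 3 months, 1 at 6 months, 2 and 1 in cerebellum, and 0 and 1 in midbrain. Over all probe sets the share called was 0.311% and 0.162% in spinal cord, 0.548% and 0.182% in cerebellum, and 0.242% and 0.142% in midbrain at 3 and 6 months. In liver 23 of the 157 were called at 3 and 26 at 6 months, which is 14.6% and 16.6% beside 9.44% and 11.5% over all probe sets. With each tissue fitted alone, the 54 calls of the 8 comparisons became 9. Because genes with a difference in most comparisons had been taken out as members, these counts describe the rest of the stretch only. No probe set of the 157 had 6 decisions in the same direction, and 124 had none.

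Tgfa, a ligand of the epidermal growth factor receptor at position -4, was among the neighbours with the most decisions. By 1421943_PM_at it was lower with 5 decisions (mean difference -0.34), and so was Tex261 1452768_PM_at at position -32 (-0.28). The brighter Tex261 probe set 1450965_PM_at had 3 decisions for higher and 2 for lower values (mean difference 0.05). Tex261 1423384_PM_s_at and the other Tgfa probe sets had no decision. The uncharacterised 2610306M01Rik at position 10 was higher with 5 decisions (0.33). Anxa4, a calcium-dependent phospholipid-binding annexin at position 9, came closest to the criterion with 6 decisions by 1421223_PM_a_at, but 4 were higher and 2 lower. The dim Anxa4 probe set 1457658_PM_x_at (mean level 3.10) had 3 decisions, all higher (0.56). In liver these probe sets disagreed, with mean differences of -0.37 by 1421223_PM_a_at and 1.01 by 1457658_PM_x_at. These 4 genes stand just outside the choice, and Gkn3 1429286_PM_at with 6 decisions and Wdr54 and Dguok with 7 stand just inside. Of the others named by the rule, Mgll, Rtkn and Add2 had decisions mainly for higher and Nat8f1, Nat8 and Gmcl1 mainly for lower values. At the ends of the stretch, Wbp1 at position -50 had a mean difference of -0.06 with 1 decision. Vmn1r41 at position 50 had one of -0.03 at a mean level of only 2.53. Near the ends, Rtkn at -48 had 4 decisions for higher values (0.29) and Txnrd3 1423868_PM_at at 48 had 2 for lower values (-0.24). Ino80b at -49 and Chchd6 at 47 had no decision. The outermost members, Wdr54 at -47 and Gkn3 at 18, had mean differences of -0.50 and -1.05. Where the differences end along the chromosome was not tested.

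Known partners of the members were followed as lists, with the camello genes among them. Of their 33 calls over the 8 comparisons, 7 were made with each tissue fitted alone. In nervous tissue 1 call was made over all lists and 6 comparisons, for Hspa9, the mitochondrial chaperone of iron-sulfur assembly, 0.33 ± 0.08 higher in KO cerebellum at 3 months (limma adjusted p = 0.0362). Of the 8 genes of the exocyst, Exoc3 and Exoc6 were called in liver at 3 months (-0.35 and 0.65) and Exoc1 and Exoc7 at 6 months (-0.26 and -0.36), which is 2 of 16 probe sets at each age beside 9.44% and 11.5% over all probe sets. Of 4 genes measured beside Tprkb in KEOPS and related tRNA modification, Osgep, its catalytic subunit, was called in liver at both ages by different probe sets (-0.62 and -0.30). Of 9 genes of deoxynucleoside salvage and mitochondrial DNA upkeep, Polg and Rrm2b were higher in liver at 3 months (0.82 by 1423273_PM_at and 0.89), and at 6 months Polg was higher (0.51) and Tk1 (-1.33) and Polg2 (-0.53) lower. Of 11 iron-sulfur genes, Iba57 was higher at both ages (0.68 and 1.05), Lias at 3 months (0.58), and Nfs1 differed by -0.59 at 3 and 0.60 at 6 months. Of 6 genes that process prenylated proteins none was called in any comparison by limma, with 6 of 56 tests at an unadjusted p under 0.05. Of 7 gastrokine and BRICHOS genes Itm2b (0.52) and Cnmd (-1.53) were called in liver at 6 months. Without the camello genes, the median difference of each list stayed between -0.18 and 0.09, beside -0.01 to 0.02 over all probe sets. For the camello genes it ran from -0.53 in liver to 0.02 in cerebellum, both at 6 months.

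Over the 16 group means, each member's leading probe set was compared with all probe sets of 1 gene symbol, as a description across groups that share the same arrays and are dominated by tissue. Nat8f5 was most alike to Cd207, which is itself a neighbour at position -36 (Pearson r = 0.96), then S1pr4 and Rad51d (both 0.94). Gkn3 1438648_PM_x_at was most alike to Chl1 and Cd248 (both 0.86) and Cdc23 (0.84). Wdr54 was most alike to Slc22a8, Lancl2 and Glyr1 (0.97 to 0.98), Exoc6b to Stam, Emc2 and Cdc37l1 (0.98 each) and Pcyox1 to Cdc27, Acp2 and A130010J15Rik (0.98 each). Dguok was most alike to Rps13, Psmg2 and Eml3 (0.91 to 0.93), Nfu1 to Pitpnc1, Tdrd7 and Glb1 (0.88 to 0.89), and Tprkb 1425410_PM_at to Golga3, Nfatc1 and Gabrp (0.93 to 0.94).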

How the data were processed

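Gene expression was measured with Affymetrix mouse arrays in 48 samples of 16 groups. The authors deposited log2 expression values that they had background corrected, quantile normalized and summarized per probe set with Robust Multichip Average in R 2.14.0. These values were used as deposited. Quantile normalization on all arrays together can shrink differences between tissues. The table held 45141 probe sets, and 104 controls were left out. Gene symbols came from the platform annotation and gene order from a RefSeq table (GRCm38.p6), in which 941 array genes lie on chromosome 6. Promoter sequences came from the RefSeq table of the same build.

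In R 4.3.3, limma 3.58.1 fitted the 16 group means to every probe set (32 residual and 4.97 prior degrees of freedom), and p-values were adjusted by Benjamini-Hochberg over 45037 probe sets within a contrast, with a threshold of 0.05. The nested F method of decideTests served for decisions over the 8 KO minus WT comparisons. The steps were tested on simulated data. The members, lists and tests were chosen with earlier results of these data known. Named neighbours were up to 10 genes with the most decisions (at least 3), partner genes the 4 with the largest called change in a list, and 3 genes of the highest correlation per member; Cd207 entered by the last. Marker lists were cerebellum, midbrain, spinal cord, liver, arterial endothelium, endothelium, vascular smooth muscle, choroid plexus, skeletal muscle, adipocyte, kidney tubule and stomach. Alternatives were another decision method, each tissue alone, a filter on dim probe sets, renewed quantile normalization, a trended prior, the mouse or its number as a replicate block, a threshold of 0.01 and leaving out each mouse. Mouse numbers recur at 3 and 6 months, and the ages were taken as 12 separate mice. The deviations of samples with the same number at the other age had a median correlation of -0.0032 over 24 pairs, so the numbers were not used to pair. The 3 mice per group limit the precision, with a median SD within groups of 0.115 to 0.218 (log2) by tissue. Scanner intensities were not analysed here.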

Additional observations from a re-analysis of the deposited data

Results flagged for a closer look

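By limma, 13 member results were flagged for a KO effect that varied, 3 of 60 between ages and 10 of 90 between tissues. They are listed as a description, since these contrasts build on the KO minus WT values that chose the members. Over all probe sets, the liver contrast between ages was called for 7.14%. Those of a nervous tissue with liver were called for 4.45% to 5.42%. Of these, 3 concerned the KO effect in liver at 6 relative to 3 months: 0.80 for Wdr54, -1.10 for Nat8f5 and -0.56 for Exoc6b 1434804_PM_at (log2). The other 10 compared a nervous tissue with liver over both ages. For Nat8f5 the KO effect was less negative in spinal cord (2.81), cerebellum (2.44) and midbrain (2.65). For Gkn3 1429286_PM_at it was more negative in these tissues (-2.07, -1.84 and -1.90), as for Gkn3 1438648_PM_x_at (-1.22, -1.18 and -1.27), and for Dguok in midbrain (-0.32). The members were chosen on KO minus WT values of the same arrays, and Nat8f5 in nervous tissue and Gkn3 in liver were measured near background. The cause of these differences was not tested.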

How the results depend on the processing

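None of the 154 named results and counts recomputed here changed its direction under these alternatives, while 12 of 720 member differences of at most 0.11 in size changed sign on leaving out a mouse. The 9 member probe sets decided in at least 6 comparisons became 0 with decisions from each comparison's adjusted p and 1 with each tissue fitted alone, and were 8 to 9 when each mouse was left out. With each tissue fitted alone, calls fell from 54 to 9 for neighbours, from 33 to 7 for partner lists, from 3 to 0 for the age difference of the KO effect, from 5 to 3 for age in WT and from 2 to 0 for age in KO mice. With the mouse number shared by the ages as a replicate block, these last 3 counts were 0, 3 and 0. With the mouse as a replicate block they were 3, 6 and 2. At a threshold of 0.01 the calls were 31 for neighbours, 19 for partner lists, 1 for the age difference of the KO effect, 2 for age in WT and 0 for age in KO mice. Without dim probe sets, age gave 9 calls in WT and 4 in KO mice. Leaving out each mouse gave 44 to 59 calls for neighbours, 26 to 33 for partner lists, 1 to 3 for the age difference of the KO effect, 9 to 10 for its tissue difference, 110 to 121 for WT tissues, 2 to 7 for age in WT and 0 to 3 for age in KO mice.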

Other observations

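Cd207, the C-type lectin langerin, lies at position -36 and was read by 1 probe set. In WT liver it had 6.24, 5.93 and 6.38 at 3 months and 6.30, 6.67 and 6.30 at 6 months (log2). In KO liver it had 4.30, 3.41 and 4.28 and then 3.51, 4.94 and 2.97, below every WT liver. The KO minus WT difference of Cd207 was -2.19 ± 0.24 (SE) at 3 months (limma adjusted p = 4.84e-08) and -2.62 at 6 months (6.92e-10). In nervous tissue its WT group means lay between 2.47 and 2.61, and the KO minus WT differences ran from -0.15 to 0.26 with no call. The neighbouring Clec4f at position -37, named after its values were seen, had differences from -0.13 to 0.55 over the 8 comparisons and 1 call. Nat8, the neighbour of Nat8f5, was higher at 6 than at 3 months in WT liver by 0.68 ± 0.16 (limma adjusted p = 0.00373). In KO liver it was higher by 0.59 ± 0.16 (0.0137), and the KO effect on Nat8 differed between the ages by -0.10 ± 0.22 (0.86).

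The remaining marker lists gave few calls. Vascular smooth muscle, choroid plexus, skeletal muscle, kidney tubule, stomach, cerebellum and spinal cord markers had 0 calls by limma at an adjusted p under 0.05 in all 8 comparisons, and 14 of their 288 tests had an unadjusted p under 0.05. Albumin (Alb) was 2.25 ± 0.41 higher in KO spinal cord at 6 months (adjusted p = 0.00317), and Ddc of the midbrain list 0.69 ± 0.14 higher there (0.0173). Of the adipocyte list only Adipoq and Car3 were measured, by 5 probe sets, and the list averaged 8.95 in WT liver at 3 months. Its differences in liver can therefore not be assigned to adipocytes. Adipoq was 2.16 ± 0.68 higher in KO liver at 3 months (0.0368), the 1 call of the list there. The list median was 0.00 and its lowest difference -1.05. At 6 months 2 probe sets of Car3 were lower, with -3.32 ± 0.50 for 1430584_PM_s_at (1.25e-05), and the list median was -0.24. Cldn5 differed by -0.49 ± 0.13 in KO liver at 3 months (0.0108) and by -0.39 at 6 months (0.0421). The part of any cell type in the members' differences was not tested.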
